A study of Mus musculus with 6 samples.

Results

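The matrix metalloproteinases (MMPs) and their tissue inhibitors (TIMPs) were compared between epithelial organoids of the mouse esophagus and of the mouse stomach. The 10 genes described are *Mmp3*, *Mmp7*, *Mmp9*, *Mmp10*, *Mmp13*, *Mmp14*, *Mmp15*, *Timp1*, *Timp2* and *Timp3*. They were chosen by gene name, and every probe carrying one of these names was kept, which gave 11 probes for 10 of the 34298 gene names on the array, out of 55681 distinct probes. *Timp2* has 2 probes, *Mmp9* has 1 probe printed in 10 spots, and each of the other genes has 1 probe in 1 spot.

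The study asked how squamous esophageal epithelium and columnar stomach epithelium are set up and kept apart at their junction, and these arrays compare both epithelia grown as organoids, that is, as small three-dimensional cultures in a basement membrane gel (Matrigel). RNA was hybridised to 6 single-colour Agilent arrays, 3 from esophagus organoids and 3 from stomach organoids. The labels give the mouse numbers 1, 2 and 4 in each tissue, read here as the same mice. All 6 were control cultures at passage 0, harvested on day 8 except stomach mouse 4, which was harvested on day 7. The labels give neither strain nor age nor sex for these mice, and the methods name wild-type C57BL/6 females among the strains used. By the methods, mouse esophagus cells were released with collagenase and TrypLE and mouse stomach glands without collagenase. Both media held EGF, noggin, FGF-10, N-acetylcysteine, nicotinamide, a ROCK inhibitor and an inhibitor of the TGF-β receptor kinase. The stomach medium also held gastrin and WNT3A and R-spondin1 conditioned media, and the esophagus medium held forskolin instead. Tissue, isolation and medium therefore cannot be told apart in any difference below.

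MMPs are zinc-dependent endopeptidases that cut collagens, laminins, proteoglycans and cell-surface proteins. Most are secreted as inactive proenzymes and are switched on when another protease removes the propeptide, whereas membrane-type MMPs are activated inside the cell by furin-like convertases and act at the cell surface. TIMPs bind the active site of MMPs and block it, and TIMP2 in addition bridges MMP14 to pro-MMP2 so that the latter is activated at the membrane.

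The labelled tissues were checked against marker genes. All 9 columnar stomach markers were higher in stomach organoids, and 5 of 6 squamous markers were higher in esophagus organoids, the sixth being *Trp63*, whose probes disagreed. Esophagus exceeded stomach for 3 of its 4 probes, by at least 49.6-fold in each, and no stomach array was above background for them. The brightest was 2.32-fold higher in stomach (limma adjusted p = 0.0249), a call lost with an offset of 50, in the processed signal and without esophagus mouse 1, esophagus mouse 2, stomach mouse 1 or stomach mouse 2. Between 45.5% and 47.3% of spots on the esophagus arrays and between 46.7% and 51.1% on the stomach arrays were well above background, and no spot was saturated. For fibroblasts and smooth muscle, cell types that make much MMP and TIMP in tissue, 0 of 11 marker genes differed by limma at an adjusted p under 0.05, 5 of 11 were well above background on no array, and only *Tagln* was above it on each of the 3 arrays of a tissue. *Pdgfra*, *Pdgfrb*, *Lum*, *Postn* and *Myh11* were the 5 at background throughout. At an unadjusted p under 0.05 there was 1, *Col1a2*, with a log2 difference of -0.58. It passed after adjustment (1 of 11 higher in stomach) in the processed signal, with the other variance model and without esophagus mouse 2. The summed linear level of the 11 genes ran from 671 to 1635 on the esophagus arrays and from 755 to 2041 on the stomach arrays. For immune cells, 2 of 11 markers differed, *Cd14* and *Itgam*, both higher in stomach by their brightest probe. The 2 other *Itgam* probes, at -0.06 and -0.02 on the log2 scale, were above background on no array. By their brightest probes, 6 of the 11 were well above background on each of the 3 arrays of a tissue. Another 4 were above it on no array, among them *Ptprc*, the pan-leukocyte marker. The summed immune level ran from 7017 to 32747 in esophagus and from 16588 to 22647 in stomach. The brightest of them, *Cd68*, had log2 values of 14.77, 12.94 and 11.80 in esophagus and 11.04, 11.22 and 12.36 in stomach (log2 difference 1.63, limma adjusted p = 0.211), and it passed as higher in esophagus without esophagus mouse 4. For endothelium 1 of 5 differed, *Vwf*, which was at least 1.55-fold higher in stomach by its brightest probe, the other being above background on no array. That call was lost with the mouse as replicate block (adjusted p = 0.0623 by limma) and without any 1 array other than stomach mouse 4 (adjusted p between 0.0527 and 0.124).

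Of the 10 MMP and TIMP genes, 5 differed between the organoid types. *Mmp14* was higher in esophagus organoids, and *Mmp7*, *Mmp15*, *Timp1* and *Timp2* were higher in stomach organoids. *Mmp3*, *Mmp9*, *Mmp10* and *Mmp13* were well above background on no array of either tissue. *Timp3* was well above background on 3 of 3 stomach arrays and 1 of 3 esophagus arrays, and its difference did not pass the test. The test was limma's moderated test on the authors' log2 values, adjusted by Benjamini-Hochberg over all 55681 probes, with a threshold of 0.05. Over all probes, 12.2% passed it, 5.94% as higher in esophagus and 6.22% as higher in stomach. These are shares of probes, and with the probes of a gene averaged 14.7% of the 34298 gene names passed. Among the 25858 probes with a signal clearly over background in each culture of 1 tissue or both, 25.1% passed. The groups did not overlap for 6 of the 10 genes, against 28.6% of all probes. The median log2 fold change, esophagus minus stomach, was -0.60 over the 10 genes and 0.024 over all probes. The methods give a p under 0.05 and a 1.5-fold change without naming an adjustment. With that p read as unadjusted, 6 of the 10 genes passed, *Timp3* being the addition, against 18.1% of all probes. For 1 gene, an exact permutation of the 6 arrays cannot give a two-sided p below 0.1, which *Mmp7*, *Mmp14*, *Mmp15*, *Timp1*, *Timp2* and *Timp3* all reached.

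**Figure D1:**
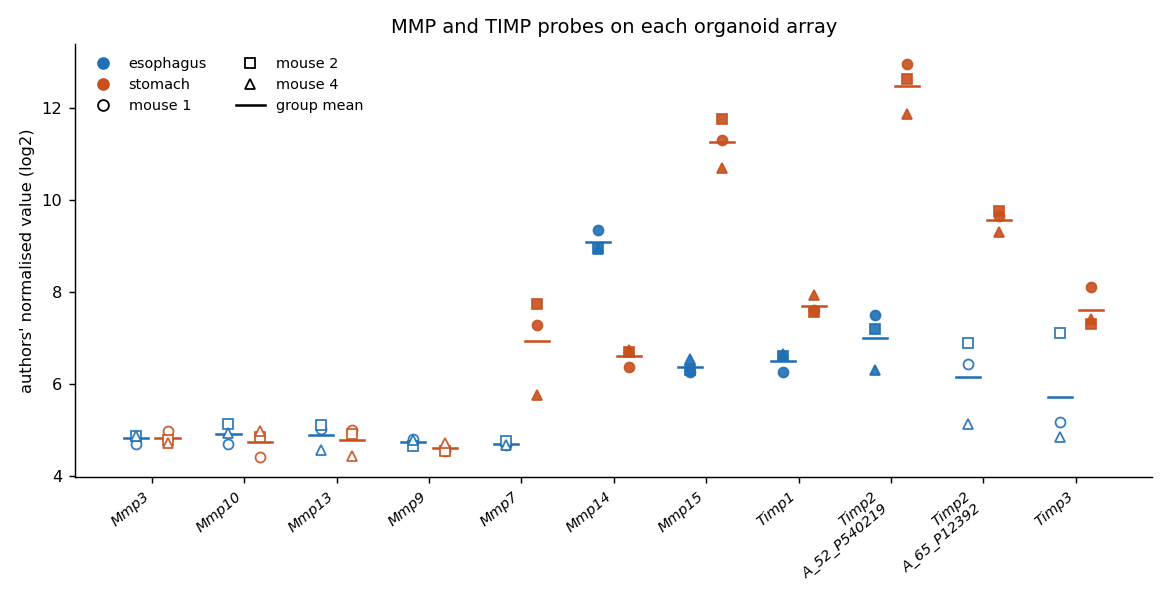
The authors' normalised log2 value (vertical axis) of each MMP and TIMP probe (horizontal axis) on every array, blue for esophagus and orange for stomach, with the marker shape giving the mouse and the bar the group mean. Filled markers stand for a tissue in which all 3 arrays were well above background. *Mmp3*, *Mmp10*, *Mmp13* and *Mmp9* lie between 4.42 and 5.13 in both tissues, *Mmp14* is higher in blue, and *Mmp7*, *Mmp15*, *Timp1*, *Timp2* and *Timp3* are higher in orange.

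**Figure D2:**
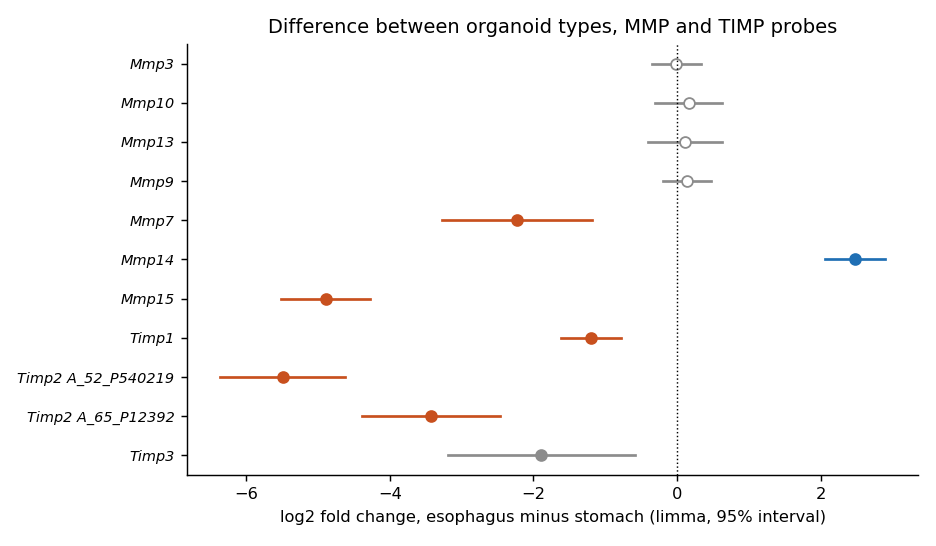
Log2 fold change, esophagus minus stomach (horizontal axis), of each MMP and TIMP probe with its 95% interval from limma. Colour marks an adjusted p under 0.05 (blue higher in esophagus, orange higher in stomach, grey neither) and an open circle a probe that neither tissue had above background in each of its 3 cultures. The estimates run from -5.49 for *Timp2* to 2.48 for *Mmp14*.

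The stromelysins *Mmp3* and *Mmp10*, broad proteases that also activate other MMPs, were at background. *Mmp3* had log2 values of 4.71, 4.88 and 4.88 in esophagus mice 1, 2 and 4 and 4.99, 4.79 and 4.72 in stomach mice 1, 2 and 4. *Mmp10* had 4.71, 5.13 and 4.93 in esophagus and 4.42, 4.85 and 4.99 in stomach. The groups overlapped for both genes. The lowest signal called well above background corresponded to log2 values between 4.49 and 5.13 on the 6 arrays, so these values sit at the floor of the arrays and have no order. The log2 difference was -0.01 ± 0.15 (SE, n = 3 and 3) for *Mmp3* (limma adjusted p = 0.98) and 0.17 ± 0.20 for *Mmp10* (limma adjusted p = 0.698).

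*Mmp13*, a collagenase that cuts fibrillar collagen, gave 5.03, 5.11 and 4.56 in esophagus and 5.0, 4.92 and 4.43 in stomach (log2 difference 0.11 ± 0.22, limma adjusted p = 0.837). *Mmp9*, a gelatinase that cuts denatured collagen and type IV collagen, gave spot means of 4.80, 4.66 and 4.79 in esophagus and 4.55, 4.55 and 4.73 in stomach (log2 difference 0.14 ± 0.14, limma adjusted p = 0.644). Both genes overlapped between the tissues and neither was well above background on any array. The repeated *Mmp9* spots show how far a background value scatters on a single array. Between 8 and 10 usable spots per array spread with an SD between 0.14 and 0.26, and 0 of them were well above background.

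*Mmp7*, matrilysin, is a small MMP without a hemopexin domain that is typically made by epithelial cells rather than stroma. Its log2 values were 4.67, 4.76 and 4.68 in esophagus, at the floor, and 7.29, 7.75 and 5.76 in stomach. The stomach arrays were all above the esophagus arrays, with the day 7 culture of mouse 4 lowest. *Mmp7* was at least 3.94-fold higher in stomach, and its fitted log2 fold change was -2.23 (95% interval -3.28 to -1.18, limma adjusted p = 0.0165). Without stomach mouse 4 the log2 difference was -2.82. The adjusted p rose above 0.05 without stomach mouse 1 (-2.05, adjusted p = 0.0811), without stomach mouse 2 (-1.82, adjusted p = 0.0552), without esophagus mouse 2 (-2.26, adjusted p = 0.0529) and with a background offset of 50 (-1.41, adjusted p = 0.0633). In the software's processed signal the difference was -4.67. In cultures measured in bulk, fewer cells that make a transcript and less transcript per cell cannot be told apart, here and for every gene below.

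*Mmp7*, *Mmp3*, *Mmp10* and *Mmp13* lie in a row of MMP genes on chromosome 9, between *Mmp13* at one end and *Mmp7* at the other. The RefSeq table lists 10 MMP genes in that row, in the order *Mmp13*, *Mmp12*, *Mmp1b*, *Mmp3*, *Mmp1a*, *Mmp10*, *Mmp8*, *Mmp27*, *Mmp20* and *Mmp7*, and all 10 had probes on the array, 12 probes in all. *Mmp7* was the 1 gene of the row with a probe that passed the test. *Mmp20*, the enamel protease, was above background on 1 stomach array, and the other 8 genes were above it on no array. The *Mmp7* probe maps to chr9:7697641-7697700 (plus strand, build mm9), and the probes of the other 3 genes to chr9:7455751-7455810 (*Mmp3*), chr9:7510011-7510070 (*Mmp10*) and chr9:7282762-7282821 (*Mmp13*). The *Mmp7* probe is shown because its signal is what differed between the tissues.
Mmp7 probe: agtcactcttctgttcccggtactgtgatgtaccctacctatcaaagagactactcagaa

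The promoters of the 4 row members are shown because 3 of these genes were at background in both tissues and 1 was above it in stomach. Given are the 250 bases before each RefSeq start (GRCm38.p6, plus strand), with TGANTCA, the letters bound by AP-1 factors, and AGGAAG, a core bound by ETS factors, in capitals on either strand (the latter then reads CTTCCT). The windows are chr9:7691840-7692089 for *Mmp7*, chr9:7445572-7445821 for *Mmp3*, chr9:7502092-7502341 for *Mmp10* and chr9:7272264-7272513 for *Mmp13*.
Mmp7: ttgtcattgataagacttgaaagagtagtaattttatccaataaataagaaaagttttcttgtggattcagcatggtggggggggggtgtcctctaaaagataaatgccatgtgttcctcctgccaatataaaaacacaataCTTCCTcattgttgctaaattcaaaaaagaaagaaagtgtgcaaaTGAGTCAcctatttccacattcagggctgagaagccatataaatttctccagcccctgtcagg
Mmp3: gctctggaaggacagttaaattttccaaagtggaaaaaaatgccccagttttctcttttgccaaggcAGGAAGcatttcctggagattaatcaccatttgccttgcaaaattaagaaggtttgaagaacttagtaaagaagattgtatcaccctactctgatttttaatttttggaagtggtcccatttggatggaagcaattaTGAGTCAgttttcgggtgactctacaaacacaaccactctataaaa
Mmp10: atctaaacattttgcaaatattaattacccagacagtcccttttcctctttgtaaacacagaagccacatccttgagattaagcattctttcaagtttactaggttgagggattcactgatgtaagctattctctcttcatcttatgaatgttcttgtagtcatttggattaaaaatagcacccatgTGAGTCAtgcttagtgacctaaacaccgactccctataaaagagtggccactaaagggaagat
Mmp13: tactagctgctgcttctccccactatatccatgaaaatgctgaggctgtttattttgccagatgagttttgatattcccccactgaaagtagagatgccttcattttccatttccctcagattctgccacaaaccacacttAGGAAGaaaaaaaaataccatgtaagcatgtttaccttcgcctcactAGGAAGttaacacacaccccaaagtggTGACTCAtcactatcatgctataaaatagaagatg

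All 4 windows hold 1 TGANTCA match, at 63 to 57 bases before the start in *Mmp7* and *Mmp10*, at 46 to 40 in *Mmp3* and at 35 to 29 in *Mmp13*. Each also holds TATAAA between the AP-1 letters and the start. Of 32851 windows of this length in the table, 6.75% hold TGANTCA, 29.5% hold AGGAAG and 12.4% hold TATAAA on either strand. Of the 9 MMP and TIMP genes with a window, 4 hold TGANTCA, the same 4 hold TATAAA and AGGAAG is in 6. The core read by TCF/LEF factors, CTTTGA, is in the first window of 0 of 9 genes and in 13.8% of all windows. *Mmp7* has a second listed start, and the window before that start holds no TGANTCA, 1 AGGAAG and 1 CTTTGA, on the opposite strand. The table of windows holds none for *Mmp9*. The AP-1 letters are thus found before 3 genes at background and before *Mmp7*. A match is a description of the sequence and not a measured site.

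The membrane-type MMPs *Mmp14* and *Mmp15* differed in opposite directions. *Mmp14*, also called MT1-MMP, is a collagenase anchored in the plasma membrane and the main activator of pro-MMP2. It had log2 values of 9.35, 8.97 and 8.95 in esophagus and 6.37, 6.70 and 6.75 in stomach. Every array of both tissues was above background, and the lowest esophagus value was well clear of the highest stomach value. *Mmp14* was 5.59-fold higher in esophagus (log2 difference 2.48, 95% interval 2.06 to 2.90, limma adjusted p = 7.89e-05), higher in 3 of 3 esophagus arrays. The difference ran from 2.08 to 2.79 over the other settings and remained past the threshold in each.

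*Mmp15*, or MT2-MMP, is the closest relative of *Mmp14* and is likewise anchored in the membrane. Its log2 values were 6.26, 6.31 and 6.55 in esophagus and 11.32, 11.77 and 10.70 in stomach. All arrays were above background and the groups did not overlap. *Mmp15* was 29.7-fold higher in stomach (log2 difference -4.89, 95% interval -5.51 to -4.27, limma adjusted p = 1.51e-05), and the difference ran from -5.32 to -4.37 over the other settings. Its absolute change was larger than that of 98% of the probes that were well above background in a tissue, and that of *Mmp14* was larger than 93.3% of them. The 2 values are differences of a probe between tissues, and the level of the *Mmp14* probe is not set against that of the *Mmp15* probe.

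The *Mmp14* probe maps to chr14:55058775-55058834 (plus strand) and the *Mmp15* probe to chr8:97897703-97897762 (plus strand), both in mm9. The *Mmp14* probe and both upstream windows are shown as those of the pair that moved apart, with AP-1 and ETS letters in capitals as above. The windows are chr14:54431348-54431597 for *Mmp14* and chr8:95352046-95352295 for *Mmp15* (GRCm38.p6, plus strand).
Mmp14 probe: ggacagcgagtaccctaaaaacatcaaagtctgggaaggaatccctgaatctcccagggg
Mmp14: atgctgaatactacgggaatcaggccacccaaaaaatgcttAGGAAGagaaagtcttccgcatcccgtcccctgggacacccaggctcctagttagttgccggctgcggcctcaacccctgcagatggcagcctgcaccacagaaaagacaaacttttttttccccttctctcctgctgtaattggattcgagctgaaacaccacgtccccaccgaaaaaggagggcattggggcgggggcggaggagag
Mmp15: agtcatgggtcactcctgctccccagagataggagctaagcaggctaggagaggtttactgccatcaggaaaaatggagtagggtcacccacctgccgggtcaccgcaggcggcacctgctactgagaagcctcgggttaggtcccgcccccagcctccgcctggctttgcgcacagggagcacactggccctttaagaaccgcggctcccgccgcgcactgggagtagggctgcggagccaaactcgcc
The *Mmp14* window holds 1 AGGAAG and no TGANTCA, the *Mmp15* window holds neither, and both lack TATAAA.

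All 3 TIMPs had higher means in stomach, and 2 of them passed the test. *Timp1*, which inhibits most secreted MMPs but is a poor inhibitor of MMP14, had log2 values of 6.27, 6.61 and 6.66 in esophagus and 7.61, 7.57 and 7.95 in stomach. The groups did not overlap and all arrays were above background. *Timp1* was 2.29-fold higher in stomach (log2 difference -1.20, 95% interval -1.61 to -0.78, limma adjusted p = 0.00393), between -1.61 and -0.97 over the other settings, all past the threshold. This was the smallest of the 5 differences that passed. The probe maps to chrX:20451802-20451861 (plus strand, mm9).

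*Timp2*, the inhibitor that also takes part in MMP2 activation on MMP14, had the probe with the largest difference among the MMP and TIMP probes above background on all 6 arrays. Averaged over both its probes, the difference was smaller than that of *Mmp15*. Probe A_52_P540219 (chr11:118163146-118163205, minus strand, mm9) had log2 values of 7.51, 7.19 and 6.31 in esophagus and 12.97, 12.64 and 11.87 in stomach. That is 44.9-fold higher in stomach (log2 difference -5.49, 95% interval -6.36 to -4.62, limma adjusted p = 5.47e-05). In both tissues the culture of mouse 4 was lowest, and the tissues were far apart all the same.

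The other *Timp2* probe, A_65_P12392, had log2 values of 6.45, 6.89 and 5.13 in esophagus, with 2 of 3 arrays above background, and 9.66, 9.77 and 9.31 in stomach. It was 10.7-fold higher in stomach (log2 difference -3.42, 95% interval -4.39 to -2.46, limma adjusted p = 0.00129). The probes gave the same direction and different sizes. Averaged before the fit, they gave -4.46, still past the threshold. Each probe on its own also passed in every other setting run, from -5.95 to -5.14 for the first and from -4.45 to -2.84 for the other. Probe A_65_P12392 covers chr11:118171964-118178741 in mm9, 6778 bases for a probe of 60, so it crosses at least 1 intron and reads spliced RNA. It is shown for that reason, followed by the window before the start of *Timp2* (chr11:118355412-118355661, GRCm38.p6, minus strand, printed 5′ to 3′ along the gene).
Timp2 probe: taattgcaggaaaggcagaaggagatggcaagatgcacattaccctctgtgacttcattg
Timp2: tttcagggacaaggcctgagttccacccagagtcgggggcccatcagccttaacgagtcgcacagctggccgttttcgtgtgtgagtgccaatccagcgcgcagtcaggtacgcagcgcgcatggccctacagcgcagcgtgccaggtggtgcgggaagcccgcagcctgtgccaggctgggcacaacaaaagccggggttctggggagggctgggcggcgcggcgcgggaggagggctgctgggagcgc
None of the 4 motifs named for the other promoters is in this window.

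*Timp3*, which is bound to the extracellular matrix and also inhibits several ADAM proteases, had log2 values of 5.17, 7.12 and 4.85 in esophagus and 8.11, 7.30 and 7.42 in stomach. Esophagus mouse 2 lay just below the lowest stomach array, and the other 2 esophagus arrays were not well above background. The log2 difference was -1.89 ± 0.56 (SE, n = 3 and 3; 95% interval -3.19 to -0.59), which did not pass (limma adjusted p = 0.0719). Without esophagus mouse 2 it was -2.60 and passed (adjusted p = 0.00199), and it also passed when dim probes were left out of the test (adjusted p = 0.0414). Under the other settings it ran up to -1.33 and down to -3.59. On that array the summed linear level of the 11 fibroblast and smooth muscle markers was 1507, against 1635 in esophagus mouse 1 and 671 in esophagus mouse 4. *Tagln* is the brightest of these, at log2 values of 10.41, 10.13 and 8.55 in esophagus mice 1, 2 and 4. *Acta2*, a smooth muscle and myofibroblast marker, was above background on the array of esophagus mouse 2 alone, at 6.69 against 4.93 and 4.97 in the other esophagus cultures and 4.95, 4.74 and 4.96 in stomach. The part of these markers in the *Timp3* value was not tested. The *Timp3* probe maps to chr10:85811696-85811755 (plus strand, mm9).

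Within the stomach group the arrays were not alike. The day 7 culture of mouse 4 was the lowest for *Mmp7*, *Mmp15* and both *Timp2* probes, and the highest for *Timp1* and *Mmp14*. Its deviation from the stomach mean was -1.17 for *Mmp7*, -0.56 for *Mmp15*, -0.62 and -0.27 for *Timp2*, 0.24 for *Timp1* and 0.14 for *Mmp14* on the log2 scale. The harvest day and the mouse cannot be told apart in these deviations.

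**Figure D3:**
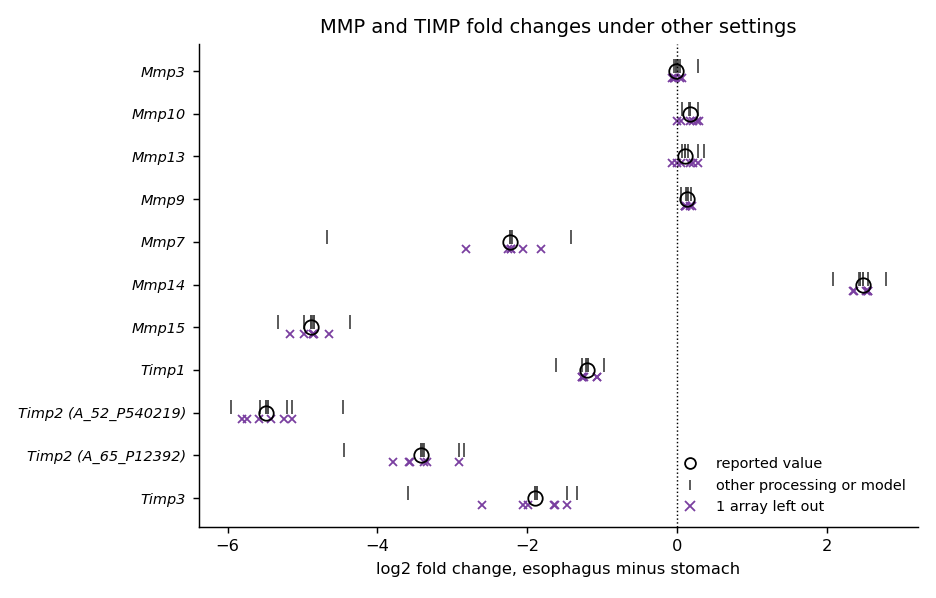
Log2 fold change, esophagus minus stomach (horizontal axis), of each MMP and TIMP probe as reported (circle), under other processing or models (grey ticks) and with 1 array left out (crosses), the tick at -4.46 being the average of both *Timp2* probes. *Mmp14* stays between 2.08 and 2.79 and *Mmp15* between -5.32 and -4.37, and *Mmp7* spreads from -4.67 to -1.41.

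The rest of the MMP family was mostly at background. Of 16 other MMP genes, 2 were higher in esophagus, 2 were higher in stomach and 11 were well above background on no array (median log2 difference 0.00). *Mmp2*, the type IV collagenase that MMP14 and TIMP2 activate, had log2 values of 6.24, 8.32 and 6.18 in esophagus and 4.63, 4.56 and 4.72 in stomach, where it was above background on no array. It was at least 4.43-fold higher in esophagus (limma adjusted p = 0.0279). So *Mmp2* and *Mmp14* were higher in esophagus and *Timp2* in stomach. The *Mmp2* call was lost without stomach mouse 1 (adjusted p = 0.104), mouse 2 (0.108) or mouse 4 (0.0567), and with an offset of 50 (0.116). Its log2 difference of 2.28 was 1.58 without esophagus mouse 2, the array on which *Acta2* was at 6.69, and the part of that marker in the *Mmp2* value was not tested.

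*Mmp17*, a membrane MMP held by a lipid anchor, was 2.63-fold higher in esophagus (adjusted p = 0.027), with 6.89, 7.73 and 8.19 against 6.17, 6.01 and 6.45. This was lost without esophagus mouse 2 (adjusted p = 0.089), stomach mouse 1 (0.106) or stomach mouse 2 (0.115), and with an offset of 50 (0.0671). *Mmp23* was at least 20.4-fold higher in stomach (5.26, 5.17 and 5.07 against 9.82, 10.15 and 8.58, adjusted p = 0.000189), and *Mmp11*, stromelysin-3, was fitted as 3.93-fold higher there, with 1 of 3 esophagus arrays above background (5.47, 5.33 and 5.53 against 7.51, 7.48 and 7.25, adjusted p = 9.56e-05). Both remained past the threshold in every setting run. Another, dimmer *Mmp11* probe was at least 2.07-fold higher in stomach (limma adjusted p = 0.0035) and above background on no esophagus array.

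Of 10 genes listed as other inhibitors, 1 was higher in each tissue (median log2 difference 0.11), and without esophagus mouse 2 the stomach count was 2. *Serpinb2*, an inhibitor of urokinase, was at least 82.6-fold higher in esophagus, at 12.22, 12.86 and 8.30 against 4.59, 4.71 and 4.53 (adjusted p = 0.00518). Its log2 difference of 6.51 was 5.65 without esophagus mouse 2 and 7.92 without esophagus mouse 4. *Spock2*, a testican proteoglycan listed with its family, was at least 10.3-fold higher in stomach (adjusted p = 9.23e-05). Whether its product inhibits MMPs was not tested, so the stomach count is not a count of shown inhibitors. *Reck*, a membrane-anchored inhibitor of MMPs, differed by -0.35 ± 0.36 on the log2 scale (adjusted p = 0.642), with 8.32, 8.99 and 7.45 in esophagus and 8.53, 8.43 and 8.85 in stomach. *Timp4* was above background on 2 stomach arrays and no esophagus array (log2 difference -0.17 ± 0.16, adjusted p = 0.621).

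**Figure D4:**
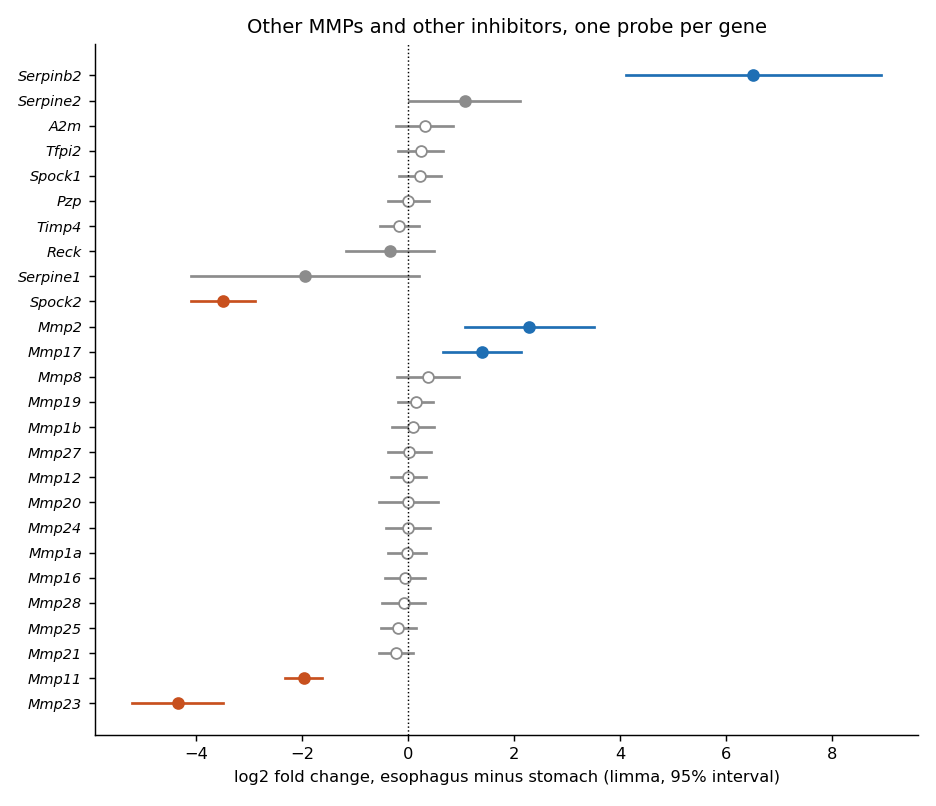
Log2 fold change, esophagus minus stomach (horizontal axis), with 95% intervals from limma, for the brightest probe of 16 other MMP genes (lower block) and 10 genes listed as other inhibitors (upper block). Colours and open circles are as in the plot of MMP and TIMP fold changes. *Serpinb2*, *Mmp2* and *Mmp17* lie to the right and *Spock2*, *Mmp11* and *Mmp23* to the left.

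Among 15 activators of MMPs and of the plasminogen system, 2 were higher in esophagus and 4 in stomach (median log2 difference -0.21). The esophagus count was 1 without stomach mouse 1 or stomach mouse 2 and with an offset of 50, and 3 without esophagus mouse 4. The stomach count was 3 without stomach mouse 1 and with the other variance model. It was 5 without esophagus mouse 1 and with dim probes left out. Those named by the rule include the membrane serine proteases *Hpn*, 95-fold higher in stomach (log2 difference -6.57, adjusted p = 1.78e-06), and *Tmprss2*, 33.6-fold higher (-5.07, adjusted p = 7.86e-07). The proprotein convertase *Pcsk6* was 19.3-fold higher in stomach (-4.27, adjusted p = 0.0118), no longer past the threshold without stomach mouse 1 (adjusted p = 0.0542) or with the other variance model (0.0594), at -3.20 without esophagus mouse 4 and at -4.95 without esophagus mouse 1. The urokinase receptor *Plaur* was 15.7-fold higher in stomach (-3.97, adjusted p = 0.000128). The 2 higher in esophagus were *Plau*, which encodes urokinase, and the convertase *Pcsk5*. *Plau* was fitted as 4.23-fold higher (2.08, adjusted p = 0.0183), with 2 of 3 stomach arrays above background. That call was lost without stomach mouse 1 or 2 and with an offset of 50. *Pcsk5* was at least 7.29-fold higher by its brightest probe (adjusted p = 0.000148), the other being above background on no array. *Furin*, the convertase that activates membrane-type MMPs, was well above background on all 6 arrays, with 12.37, 12.63 and 12.23 in esophagus and 12.22, 12.23 and 12.28 in stomach (log2 difference 0.17 ± 0.16, adjusted p = 0.609). *Plg*, which encodes plasminogen, was above background on no array.

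Of 14 proteins that dock or induce MMPs, 2 were higher in esophagus and 3 in stomach (median 0.46). The esophagus count was 0 without esophagus mouse 2, stomach mouse 1 or stomach mouse 2, 1 without esophagus mouse 1, 4 without esophagus mouse 4 and 3 without stomach mouse 4. With the mouse as replicate block, 1 was higher in esophagus and 4 in stomach. The counts use the brightest probe of a gene, and for 2 genes that did not pass by it other probes did, both higher in esophagus. They are *Cd44*, which anchors MMP9 and MMP7 at the cell surface, with 3 of 4 probes past the threshold (log2 differences 1.42, 1.59 and 1.67, against 1.12 for the brightest), and the integrin gene *Itgav*, with 1 of 2 (1.94, against 1.04). *Lcn2*, whose product binds MMP9, was fitted as 8.86-fold higher in stomach, with 2 of 3 esophagus arrays above background (adjusted p = 0.0076). *Bsg*, the MMP inducer EMMPRIN, was 6.12-fold higher in stomach (adjusted p = 3.65e-05), and *Cd63*, a tetraspanin that binds TIMP1, was 2.13-fold higher there (adjusted p = 0.0186). *Lrp1*, the endocytic receptor that clears MMPs and TIMPs, was 6.16-fold higher in esophagus (adjusted p = 0.0136). Of 3 *Lrp1* probes 2 passed, the dimmer of them at a log2 difference of 0.66, and the remaining one was at 0.36. The *Lrp1* call was lost without esophagus mouse 2 (adjusted p = 0.0544), stomach mouse 1 (0.0524) or stomach mouse 2 (0.0523), and its log2 difference of 2.62 was 3.26 without esophagus mouse 4. The *Cd63* call was lost without esophagus mouse 2 (0.0655) or stomach mouse 1 (0.0735) and in the processed signal (0.249).

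Of 12 ADAM and ADAMTS genes, relatives of the MMPs, 1 was higher in esophagus and 4 in stomach (median -0.48). *Adamts15* was at least 44.2-fold higher in stomach (adjusted p = 7.64e-05), the sheddase *Adam9* 5.1-fold higher (adjusted p = 0.000626) and *Adamts9* at least 2.53-fold higher (adjusted p = 0.00407), with another *Adamts9* probe at a log2 difference of -0.50 that did not pass. *Adamts1* was at least 19.9-fold higher in esophagus (8.59, 11.54 and 7.57 against 4.75, 4.79 and 5.04, adjusted p = 0.0152). That call was lost without stomach mouse 1 (adjusted p = 0.0692) or mouse 2 (0.0686), with an offset of 50 (0.0939) and with the other variance model (0.066), and its log2 difference of 4.37 was 3.22 without esophagus mouse 2 and 5.21 without esophagus mouse 4.

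Of 18 basement membrane and matrix substrates, 4 were higher in esophagus and 10 in stomach (median -1.49). Several type IV collagen chains, substrates of the gelatinases, were higher in stomach, at least 59-fold for *Col4a2*, at least 46.5-fold for *Col4a1* and at least 24.9-fold for *Col4a5* (adjusted p = 3.62e-07, 6.85e-07 and 2.7e-06). The *Col4a6* probes disagreed, with a log2 difference of -4.11 (adjusted p = 7.46e-06) for A_52_P516409 and 0.39 (adjusted p = 0.282) for A_52_P447196, which was above background on all 6 arrays. *Col17a1*, the hemidesmosome collagen of basal squamous cells, was at least 747-fold higher in esophagus (adjusted p = 9.39e-08). Over the 85 genes of these 6 lists, 36 differed by their brightest probe. That stands against 12.2% of all probes, and 14.7% of all gene names with the probes of a gene averaged. Of the 85, 59 were well above background in each culture of 1 tissue or both, and of all probes with such a signal 25.1% differed. The lists were chosen with earlier results known, so these counts describe them and support nothing beyond.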

How the data were processed

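RNA of 6 organoid cultures was labelled with Cy3 and hybridised to Agilent 8x60K mouse arrays, with spot intensities read by the authors with Agilent Feature Extraction 11.5.1.1. Per the file headers, probe coordinates are in build mm9. The authors corrected background and normalised by quantiles, and the deposited table holds log2 values per spot. The deposited scanner intensities, corrected by normexp with an offset of 15 on median signals and quantile normalised, gave that table back to within 0.0726 at every spot, the median deviation being 0.00433 in size. The deposited scanner files also give other marks per spot, namely whether it is well above background, saturated or an outlier, and outlier spots are the missing values.

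Spots of a probe were averaged, and where a gene has several probes the brightest over the 6 arrays stands for it. Tissues were compared with limma 3.58.1 in R 4.3.3 over 55681 non-control probes, without a block, as the methods state no block. Log2 fold changes are esophagus minus stomach, and an SE or interval comes from that fit. A group with 0 of 3 arrays well above background has only a bound, so the fold was computed against the higher of each array's lowest well-above-background signal and the probe's own value, and is written "at least". Precision is limited by having 6 arrays, and p-values measure the spread between 3 cultures a tissue, each from another mouse.

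The mouse numbers in the labels pair the cultures if a number stands for the same mouse in both tissues, which the methods do not state. Deviations of same-number cultures from their group means correlated at 0.025, 0.012 and -0.008 across probes, which are not independent replicates. The mouse as replicate block, the slide, other background corrections, the processed signal scaled to the 75th percentile, a filter on dim probes, another variance model and leaving out each array were tried. The slide as a block equals leaving out esophagus mouse 4, the only one of the 6 arrays on its slide. The MMP and TIMP genes and all lists were chosen with earlier results of these data known. Named are all MMP and TIMP genes and, of each other list except the squamous and columnar markers, up to 4 genes. These have the largest difference among those past the threshold whose signal was well over background in each culture of 1 tissue or both. Genes named outside that rule, after their values were seen, are *Reck*, *Timp4*, *Furin*, *Plg*, *Plau*, *Pcsk5*, *Cd9*, *Cd44*, *Itgav*, *Thbs1*, *Col4a6*, the other genes of the chromosome 9 row and, among the markers, *Trp63*, *Tagln*, *Acta2*, *Cd68*, *Col1a2*, *Ptprc*, *Pdgfra*, *Pdgfrb*, *Lum*, *Postn* and *Myh11*. Promoter sequences are RefSeq's (GRCm38.p6), found by gene symbol, and 9 of 10 genes had a window. That build was used for those windows and for gene order only.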

Additional observations from a re-analysis of the deposited data

How the results depend on the processing

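Of the 10 MMP and TIMP genes, 4 to 6 differed under the alternatives, and *Mmp14*, *Mmp15*, *Timp1* and *Timp2* kept direction and stayed past the threshold in every one. With the mouse as replicate block, 5 of the 10 genes and 6153 of all probes passed, and of the genes in the lists the block ended the calls of *Vwf* and *Cd9* and added *Thbs1*, which made the docking list 1 higher in esophagus and 4 in stomach, and changed no other call. Leaving out 1 array gave between 4091 and 7415 probes against 6770, lowest without stomach mouse 1, and 4152 without stomach mouse 2. With the methods' threshold, its p read as unadjusted, 10096 probes passed. Over the 85 other protease-system genes, 28 to 40 passed the adjusted threshold under the alternatives, against 36. *Mmp3*, at background on every array, changed sign from -0.01 to 0.04 with an offset of 16, to 0.02 with an offset of 50 and to 0.28 in the processed signal, and ranged from -0.07 to 0.07 with 1 array left out. *Mmp13*, also at background, ranged from -0.07 to 0.28 with 1 array left out and was reversed without stomach mouse 4. The cause was not tested. The processed signal scaled to the 75th percentile moved the median log2 fold change of all probes to 0.195, from 0.024. Folds written "at least" hold for the authors' values and move with the background correction. With an offset of 50 the log2 difference was 8.43 against 9.69 for *Col17a1*, -4.87 against -6.17 for *Col4a2* and -3.4 against -4.35 for *Mmp23*. In the processed signal the 3 differences were 12.44, -8.9 and -6.71. Signal over background limits what can be said of *Mmp3*, *Mmp9*, *Mmp10* and *Mmp13*, which were not well above background on any array and for which a difference was not detectable.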
